A study of Arabidopsis thaliana with 12 samples.

Results

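The genes described here are those of Arabidopsis roots whose signal changed between 1 h and 8 h in the same direction, and to a similar level, at pH 4.5 and at pH 6. They were chosen from the measured values, as probe sets with a log2 change of group means (8 h over 1 h, after adding 4 to each signal) of at least 0.7 in size at both pH. The choice also required a log2 difference between the pH values under 0.5 in size at each time, a largest group mean of at least 20, and no overlap of the 1 h and 8 h arrays at either pH. Of 22746 probe sets other than array controls, 158 met the rule, 58 rising (0.255%) and 100 falling (0.44%) from 1 h to 8 h. All 12 samples were total RNA from roots of Col-0 plants at a stage of 3.90 weeks, germinated on 0.7% agarose and grown in non-sterile hydroponic culture at 23 °C. The 4 groups were pH 4.5 for 1 h, pH 6 for 1 h, pH 4.5 for 8 h and pH 6 for 8 h, with 3 Affymetrix ATH1 arrays each and 1 sample on each array. No group was taken before the treatment, and the labels give no hour of the day, so the length of treatment, the handling and the hour of harvest cannot be told apart in a difference between 1 h and 8 h.

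Many plant genes change over hours whatever the medium. The circadian clock and light set daily rhythms in roots as well as shoots, and GIGANTEA (GI) is a clock gene with a strong daily rhythm. Sugar supply and handling also move transcripts within hours, and molecular chaperones, which help proteins fold, respond to many kinds of disturbance. Glycosyltransferases attach sugars to small molecules such as flavonoids, phenylpropanoids and glucosinolates, which roots store and secrete.

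The arrays had been scaled to one trimmed mean, and their medians lay between 38.2 and 40.2. The root markers EXPA7, EXPA18 and PYK10 were measured on every array, at 54.6 to 158, 72.8 to 120 and 2762 to 4681. The ratios of 3' to 5' actin probe sets, a sign of RNA quality, overlapped between the times at each pH. They were 18.2 to 21.1 after 1 h and 15.3 to 20.8 after 8 h at pH 4.5, and 10 to 17 and 14.4 to 19.9 at pH 6. After 1 h they thus did not overlap between the pH values. The GAPDH ratios after 1 h were 1.25 to 1.47 at pH 4.5 and 0.928 to 1.26 at pH 6. The labels do not say whether the 3 samples of a group came from separate cultures, so a p-value here sets a difference against a spread that may be no more than technical. A change in bulk tissue cannot tell fewer cells of a type from less RNA per cell.

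The rising members had a median log2 change of 1.00 at pH 4.5 (range 0.72 to 2.80) and 0.98 at pH 6 (range 0.70 to 2.99). The falling members had a median of -1.05 at each pH, with ranges of -3.31 to -0.71 at pH 4.5 and -2.79 to -0.70 at pH 6. Before the conditions on pH and level, 129 probe sets passed the threshold upward at both pH and 238 downward. The condition of a small pH difference removed 58 of the 129 and 113 of the 238. At least 2-fold changes at both pH were found in 19 rising members, against 44 of all probe sets (0.193%), and in 45 falling members, against 112 (0.492%). Of the members, 4 rising and 5 falling changed at least 4-fold at both pH. As the rule used these values, they are descriptions, and no test was made on the members.

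**Figure D1:**
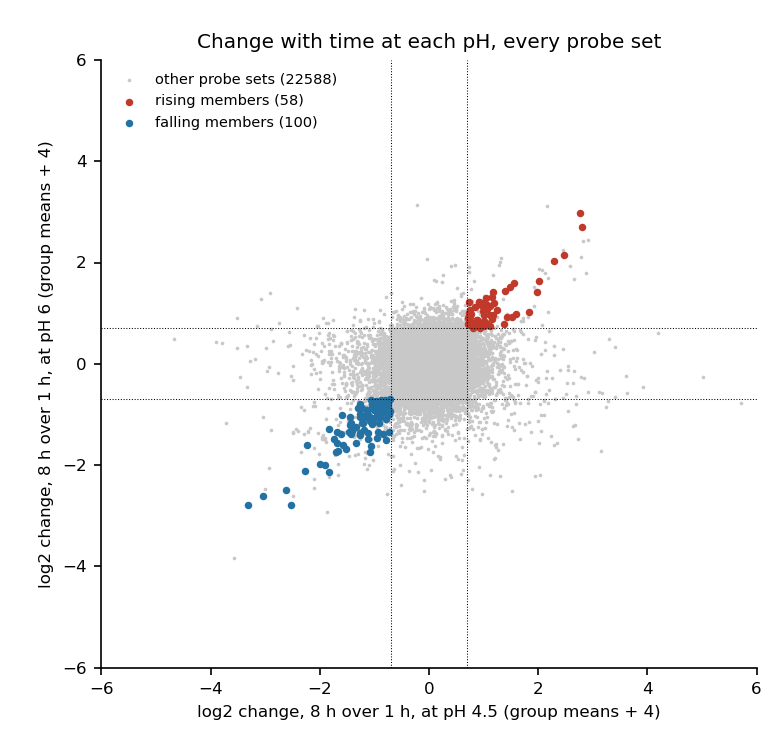
Log2 change from 1 h to 8 h at pH 4.5 (x axis) against that at pH 6 (y axis) for every probe set, from means of 3 arrays per group after adding 4. The 58 rising members lie in the upper right corner and the 100 falling members in the lower left, beyond the dotted lines at 0.7 and -0.7. Other probe sets also pass those lines at both pH but miss a further condition of the rule.

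The members also separated the times on single arrays, which the rule had largely required. Averaged over the 58 rising members, log2(signal + 4) was 6.04 to 6.20 on the 6 arrays of 1 h and 7.23 to 7.39 on those of 8 h. Over the 100 falling members it was 6.96 to 7.06 after 1 h and 5.66 to 5.94 after 8 h. In 58 of 58 rising members all 6 arrays of 8 h lay above all 6 of 1 h, which held for 2.52% of all probe sets. The reverse was true of 94 of 100 falling members, and of 2.24% of all probe sets. Nothing is read from these counts, since the rule allowed no overlap of the times within a pH and only a small pH difference. The same holds wherever single members are described below as separated between the times. Among the 6 exceptions, the named genes were AT1G21680, AT1G49200 and LHCB4.1, where a value of one pH crossed the range of the other. Replicate 3 of pH 4.5 at 8 h stood nearest to the 1 h arrays for the falling members, at 5.94 against 5.66 and 5.72 on its 2 companions. Without it the rule found 65 rising and 108 falling members, of which 55 and 78 were among the members described here. No other left-out array kept so few of the falling members. The median coefficient of variation within a group was 11.8% for rising and 13.9% for falling members.

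**Figure D2:**
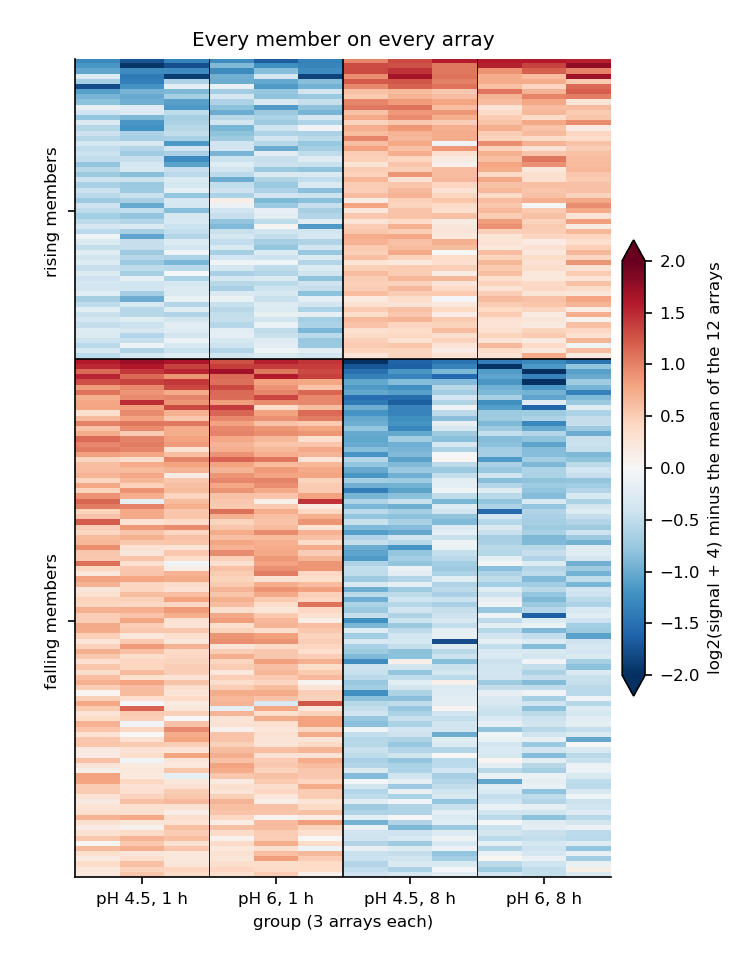
Every member (rows, ordered by size of change within each direction) on every array (columns, 3 per group), as log2(signal + 4) minus that member's mean over the 12 arrays. Rising members are blue at 1 h and red at 8 h, falling members the reverse, and the 2 pH columns of a time look alike, as the rule required.

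In a limma fit to all 15922 probe sets above a low-signal filter, 57 of the 58 rising members were tested and 57 were called higher at 8 h at each pH, where 12.7% of all probe sets tested were called higher at pH 4.5 and 8.92% at pH 6. Of the 100 falling members, 100 were called lower at pH 4.5, against 11.1% of all tested, and 99 at pH 6, against 10.6%, the exception being AT1G49200. Nothing is read from these counts, since the rule used the same contrasts. A single gene was named for 37 rising and 51 falling probe sets. The probe table gave several genes for 1 rising and 2 falling members and none for 20 and 47, and among those without a name were the largest changes.

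The unnamed probe set with the largest rise gave signals of 24.1, 16.8 and 23 at pH 4.5 and 24.8, 18 and 23.1 at pH 6 after 1 h, and 132, 169 and 202 at pH 4.5 and 204, 203 and 199 at pH 6 after 8 h. Its log2 differences, 8 h minus 1 h, were 2.75 ± 0.16 at pH 4.5 and 3.00 ± 0.16 at pH 6 (± SE of the limma fit, here and for the log2 differences below, with n = 3 arrays in each group). The probe set with the largest fall, also unnamed, gave 406, 441 and 412 at pH 4.5 and 325, 396 and 362 at pH 6 after 1 h, and 30.5, 40.9 and 44.8 at pH 4.5 and 48.1, 51.7 and 46.1 at pH 6 after 8 h. It fell by 3.32 ± 0.12 (SE) at pH 4.5 and by 2.79 ± 0.12 at pH 6 on the log2 scale. The 8 h arrays of both probe sets lay far from all 1 h arrays, where the rule required no overlap within each pH.

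Among the 37 rising members with a single named gene were UGT84A1, UGT78D2, UGT72E2, AT2G22930, AT1G06000 and AT2G31790, all of the UDP-glycosyltransferase family. They are described together by a grouping made after the values were seen, and the family's share of all named probe sets was not computed. UGT84A1 (AT4G15480), which glucosylates hydroxycinnamic acids, gave 1.11, 0.417 and 0.421 at pH 4.5 and 0.404, 1.82 and 0.393 at pH 6 after 1 h, and 22.4, 24.7 and 17.8 at pH 4.5 and 15.7, 20.2 and 16.9 at pH 6 after 8 h. Its 1 h signals were close to 0 on every array, so it alone among the rising members was left out of the fit, and the changes of group means by the rule were 2.46 and 2.15. UGT78D2 (AT5G17050), a flavonoid 3-O-glucosyltransferase, gave 50.6, 51.1 and 39.1 at pH 4.5 and 55.3, 65.1 and 45.1 at pH 6 after 1 h, and 86.5, 112 and 94.2 at pH 4.5 and 118, 108 and 128 at pH 6 after 8 h. The log2 differences were 1.00 ± 0.15 at pH 4.5 and 1.05 ± 0.15 at pH 6. No 8 h array of UGT78D2 fell within the 1 h range, as the rule required within each pH.

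AT2G22930, a glycosyltransferase of the same family, had differences of 1.54 ± 0.21 at pH 4.5 and 0.95 ± 0.21 at pH 6. AT1G06000, which adds rhamnose to flavonols, rose about equally, 1.83-fold at pH 4.5 and 1.82-fold at pH 6. UGT72E2 (AT5G66690), which glucosylates monolignols, the building units of lignin, gave 400, 330 and 369 at pH 4.5 and 335, 471 and 428 at pH 6 after 1 h, and 684, 685 and 562 at pH 4.5 and 664, 587 and 772 at pH 6 after 8 h. It lay just inside the threshold, with differences of 0.81 ± 0.13 at pH 4.5 and 0.71 ± 0.13 at pH 6. AT2G31790, which acts in glucosinolate synthesis, was also near the threshold, 1.92-fold at pH 4.5 and 1.63-fold at pH 6. A wider group, also chosen after the values were seen, was the 28 tested probe sets whose gene carries a UGT symbol. Of these, 4 were called higher at 8 h at both pH and 0 lower, where 2.9% and 3.39% of all tested were. UGT78D2 and UGT72E2, members chosen by the rule, were among the 4, so nothing is read from this count. The median log2 differences of the 28 were 0.24 at pH 4.5 and -0.04 at pH 6. Over all probe sets tested the medians were 0.02 and 0.01. AT2G22930, AT1G06000 and AT2G31790, which carry a locus code only, are not among the 28.

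Genes for chaperones and folding helpers were among the rising members. AT3G09440, a cytosolic heat shock protein of the HSP70 class, gave 745, 700 and 811 at pH 4.5 and 810, 531 and 668 at pH 6 after 1 h, and 1848, 1580 and 1921 at pH 4.5 and 1455, 1289 and 1484 at pH 6 after 8 h. It rose by 1.24 ± 0.12 at pH 4.5 and 1.09 ± 0.12 at pH 6 (SE, log2). Its 8 h arrays lay above every 1 h array at either pH, as the rule required within each pH. AT1G52560, a small heat shock protein, gave 10.9, 11.5 and 4.61 at pH 4.5 and 10.5, 8.83 and 7.27 at pH 6 after 1 h, and 25.2, 28.6 and 14.2 at pH 4.5 and 32.3, 26.7 and 24.3 at pH 6 after 8 h. All 8 h values were again the higher ones, as the rule required within each pH. The lowest of them, at 14.2, stood just above the highest 1 h value, at 11.5. AT2G21130, a cyclophilin, which is a prolyl isomerase that assists folding, rose 2.11-fold at pH 4.5 and 2.13-fold at pH 6. The falling members also held a prolyl isomerase gene, AT1G73655, at -0.70 ± 0.15 at each pH.

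Of 45 loci in a list of heat shock and chaperone genes, 14 had a named probe set and 11 were tested. The calls at 8 h were 6 higher and 1 lower at pH 4.5, also 6 higher and 1 lower at pH 6, and 5 higher and 1 lower at both. Over all probe sets tested, 12.7% were called higher and 11.1% lower at pH 4.5, 8.92% and 10.6% at pH 6, and 2.9% and 3.39% at both. The members AT3G09440 and AT1G52560, chosen by the rule, were 2 of the 11. Of the 9 others, 4 were higher and 1 lower at pH 4.5, 4 higher and 1 lower at pH 6, and 3 higher and 1 lower at both. The list's median log2 differences, with the members included, were 0.67 at pH 4.5 and 0.38 at pH 6. Over all probe sets tested they were 0.02 and 0.01. As the rule chose the members for rising, nothing is read from the calls or medians of the whole list. Hsp70-2 (AT5G02490), another cytosolic HSP70, was no member because its 8 h signal differed between the pH values. It rose from 109, 106 and 138 to 580, 564 and 504 at pH 4.5 (limma adjusted p = 1.34e-10), and from 129, 109 and 127 to 269, 222 and 266 at pH 6 (adjusted p = 5.34e-06). ATERDJ2B (AT4G21180), a J-domain protein of the endoplasmic reticulum, rose by 0.73 ± 0.16 at pH 4.5 (adjusted p = 0.00265) and 0.59 ± 0.16 at pH 6 (adjusted p = 0.0166). The pH 6 call of ATERDJ2B ended without replicate 1 of the 1 h group (0.39) or replicate 3 of the 8 h group (0.54). AT5G51440, a small heat shock protein, rose at pH 4.5 (1.28 ± 0.21, adjusted p = 0.000177), while its difference at pH 6 was 0.38 ± 0.21 (adjusted p = 0.226). The small heat shock gene AT4G21870 fell, by 1.14 ± 0.18 at pH 4.5 (adjusted p = 9.4e-05) and by 1.77 ± 0.18 at pH 6 (adjusted p = 1.42e-06). AT4G21870 was the only gene of the 11 tested that was called lower at either pH.

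Regulators were also found among the named rising genes. ATC (AT2G27550), a relative of TERMINAL FLOWER 1 that represses flowering, gave 34.5, 53.7 and 111 at pH 4.5 and 115, 55.7 and 63.8 at pH 6 after 1 h, and 251, 293 and 276 at pH 4.5 and 194, 172 and 283 at pH 6 after 8 h. The spread of ATC was wide at 1 h, and its differences were 2.12 ± 0.30 at pH 4.5 and 1.46 ± 0.30 at pH 6. AT4G17670, a small zinc-finger protein of the FLZ family, gave 87.1, 78.8 and 72.2 at pH 4.5 and 101, 126 and 113 at pH 6 after 1 h, and 314, 285 and 274 at pH 4.5 and 244, 271 and 186 at pH 6 after 8 h. Its rise was larger at pH 4.5, 1.83 ± 0.13 at pH 4.5 and 1.01 ± 0.13 at pH 6, the widest gap between the pH values among rising members (0.80 by the rule). HYH (AT3G17609), a bZIP factor related to HY5 of light signalling, and AT3G52740 (BIC1), an inhibitor of the blue-light receptors called cryptochromes, rose by 0.72 ± 0.18 and 0.91 ± 0.18 at pH 4.5 and by 0.94 ± 0.18 and 0.87 ± 0.18 at pH 6. The MAP kinase gene ATMPK13 (AT1G07880) rose 1.66-fold at pH 4.5 and 1.92-fold at pH 6. Genes of F-box proteins, which select targets for ubiquitin ligases, were AT3G27150 (2.24-fold and 1.85-fold) and AT2G36090 (2.01-fold and 1.8-fold).

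Several rising genes encode wall or secreted proteins. EXPB2 (AT1G65680), a beta-expansin, a kind of protein that loosens the wall, gave 29.4, 35.4 and 31.7 at pH 4.5 and 33.6, 25.1 and 24 at pH 6 after 1 h, and 65.6, 63.7 and 71 at pH 4.5 and 78, 53.5 and 73.6 at pH 6 after 8 h. Its values did not overlap between the times, as the rule required within each pH, and it rose 1.96-fold at pH 4.5 and 2.29-fold at pH 6. AT5G14650, a polygalacturonase-type enzyme that acts on pectin, gave 254 on the array of pH 6 replicate 1 at 1 h, against 122 and 127 on the other 2, and its 8 h values were 255 to 342 at pH 4.5 and 355 to 399 at pH 6. PR-1-LIKE (AT2G19990), AT2G44300 and AT4G33550, the latter pair lipid-transfer-type proteins, rose by 0.93, 1.17 and 0.75 at pH 4.5 and by 1.22, 0.96 and 1.00 at pH 6 on the log2 scale. AT1G58170, a dirigent protein, which guides the coupling of phenolic units, rose 1.68-fold at pH 4.5 and 2.09-fold at pH 6. The serine carboxypeptidase-like gene scpl46 (AT2G33530) rose 2.02-fold at pH 4.5 and 1.69-fold at pH 6.

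The other named rising members follow by role. BCAT4 (AT3G19710), which starts the chain elongation of methionine for glucosinolates, gave 1416, 1437 and 1508 at pH 4.5 and 1590, 1154 and 1519 at pH 6 after 1 h, and 2839, 3075 and 3058 at pH 4.5 and 2288, 2448 and 2746 at pH 6 after 8 h. It rose by 1.04 ± 0.11 at pH 4.5 and 0.82 ± 0.11 at pH 6. HL (AT5G54390), a HAL2-like phosphatase, had narrow groups, at 115 to 121 and 117 to 139 after 1 h and at 237 to 242 and 207 to 244 after 8 h. AT1G16310, a cation efflux family protein, rose 2.17-fold at pH 4.5 and 2.24-fold at pH 6. AT3G32030, annotated with terpene cyclases and read by a probe set that can match similar genes, rose 2.14-fold at pH 4.5 and 2.21-fold at pH 6. The alpha/beta hydrolase-type genes AT1G52700, AT3G15650 and AT2G36290 rose by 1.55, 0.74 and 0.89 at pH 4.5 and by 1.59, 1.23 and 0.74 at pH 6. AT3G02910, of the AIG2-like family, gave 449 to 546 over the 6 arrays of 1 h and 850 to 1138 over those of 8 h. The acyltransferase AT1G78990, the phosphoglycerate mutase family gene AT1G22170 and the elongation factor 1B gene AT5G12110 rose by 0.94, 0.78 and 0.79 at pH 4.5 and by 0.80, 0.93 and 0.81 at pH 6. The remaining named rising genes, AT5G41620, AT4G18630 and AT4G29520, rose by 0.72 to 0.86 at either pH. The probe set shared by AT3G45080 and AT3G45070, of the sulfotransferase family, rose by 0.83 and 1.12 by the rule.

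**Figure D3:**
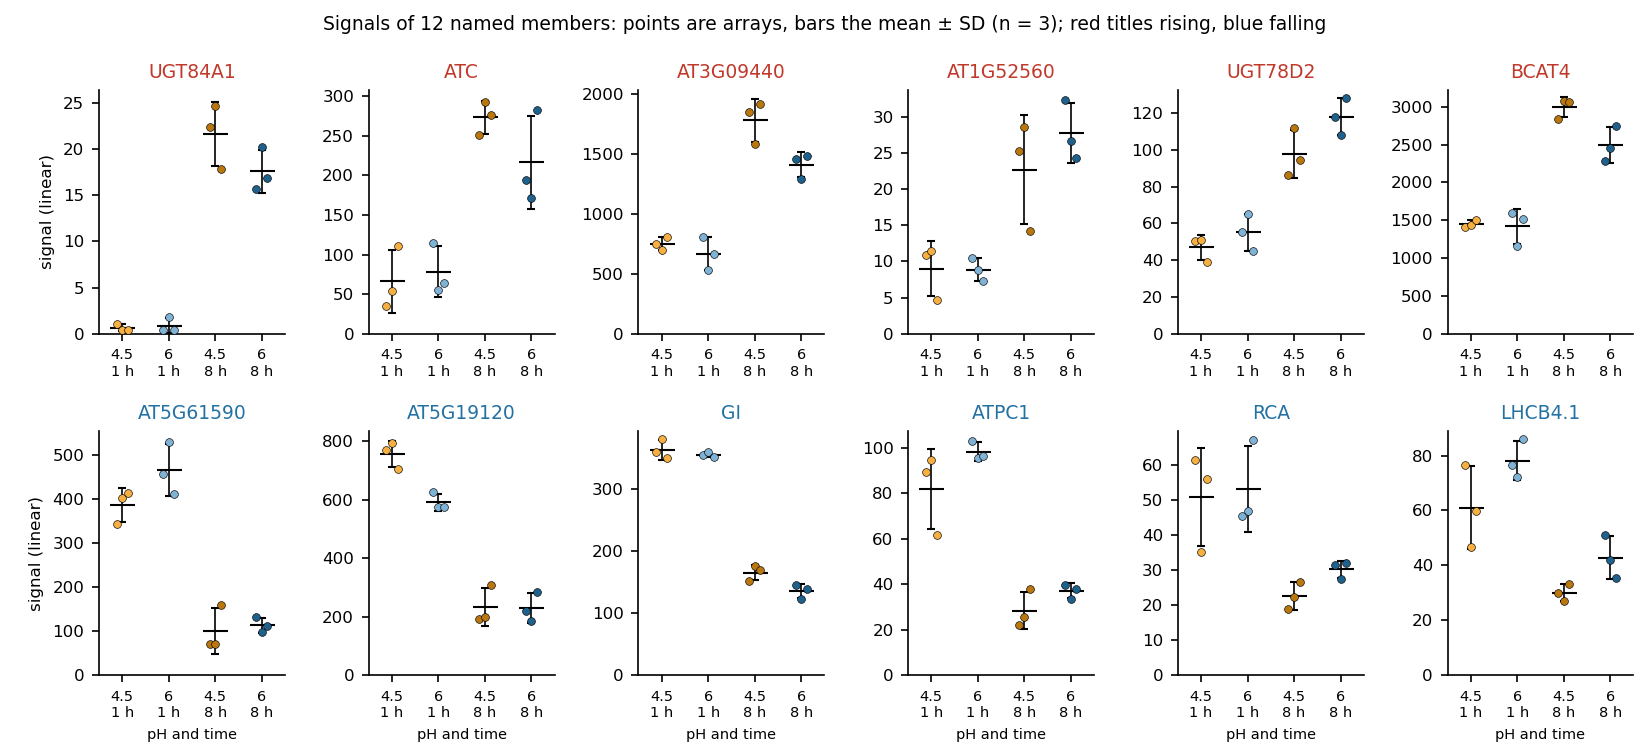
Signals of 12 named members on a linear axis from 0 (points, arrays; bars, mean ± SD, n = 3), with the 1 h groups on the left of each panel. The top row shows rising and the bottom row falling genes. In every panel except that of LHCB4.1 the 8 h points of both pH lie clear of all 1 h points, as the rule required within each pH.

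The largest fall among named genes was that of AT5G61590, which encodes DEWAX, an ERF transcription factor that represses cuticular wax genes. Its signals were 344, 404 and 414 at pH 4.5 and 458, 531 and 412 at pH 6 after 1 h, and 69.8, 70.5 and 160 at pH 4.5 and 131, 98.1 and 111 at pH 6 after 8 h. It fell 4.04-fold at pH 4.5 and 4.01-fold at pH 6, the change at pH 4.5 being -2.01 ± 0.22 (SE) on the log2 scale. Replicate 3 of pH 4.5 at 8 h, at 160, was above the other 8 h arrays and far below the lowest 1 h array. Without that array AT5G61590 no longer met the rule, so its near-equal folds rest in part on it. Other transcriptional regulators that fell were AT5G47390 (KUA1), a MYB-related factor (1.87-fold and 1.92-fold), PTL (AT5G03680), a trihelix factor of perianth growth (2.04-fold and 1.73-fold), and AT2G31730, a basic helix-loop-helix protein (1.68-fold and 2.57-fold). AT2G36320, a zinc-finger protein of the A20/AN1 stress-associated class, gave 987, 907 and 796 at pH 4.5 and 844, 879 and 762 at pH 6 after 1 h, and 365, 339 and 411 at pH 4.5 and 486, 488 and 459 at pH 6 after 8 h. It fell more at pH 4.5, -1.26 ± 0.10 at pH 4.5 and -0.79 ± 0.10 at pH 6. AT2G30600, a BTB/POZ protein, was measured by 2 probe sets, and both were members. They fell 2.71-fold and 2.72-fold at pH 4.5 and 2.63-fold and 2.34-fold at pH 6. The rule chose both from these values, so nothing is read from their likeness.

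The clock gene GI (AT1G22770), which acts in photoperiodic flowering, was a falling member with little spread. It gave 360, 380 and 349 at pH 4.5 and 355, 360 and 351 at pH 6 after 1 h, and 151, 175 and 169 at pH 4.5 and 145, 122 and 139 at pH 6 after 8 h. The 1 h values all lay within 349 to 380, and the log2 differences were -1.12 ± 0.09 at pH 4.5 and -1.37 ± 0.09 at pH 6. Of 36 loci in a clock list, 6 had a named probe set and 6 were tested. The calls were 2 higher and 1 lower at pH 4.5 and 1 higher and 2 lower at pH 6, where 12.7% and 11.1% of all tested were higher and lower at pH 4.5 and 8.92% and 10.6% at pH 6. GI, a member by the rule, was 1 of those called lower at each pH. The medians of the list, with GI included, were 0.07 and -0.21. COR27 (AT5G42900), a cold- and light-regulated gene of the clock, rose at both pH, from 17.1, 23 and 18.2 to 32.9, 32.9 and 38.3 at pH 4.5 (limma adjusted p = 0.00697) and from 7.82, 6.38 and 6.55 to 33.8, 40.1 and 28.7 at pH 6 (adjusted p = 1.91e-06). CCL (AT3G26740), named for its rhythmic transcript, moved in opposite directions, with 1.19 ± 0.19 at pH 4.5 (adjusted p = 0.000143) and -1.58 ± 0.19 at pH 6 (adjusted p = 1.21e-05). For AT4G33980 and AT5G52660 the differences were -0.45 ± 0.22 and 0.18 ± 0.16 at pH 4.5 and 0.05 ± 0.22 and -0.32 ± 0.16 at pH 6, with limma adjusted p between 0.164 and 0.908. The clock list as measured here did not move one way.

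Chloroplast proteins were encoded by several of the named falling members. ATPC1 (AT4G04640), the gamma subunit of the chloroplast ATP synthase, gave 89.1, 94.4 and 61.7 at pH 4.5 and 103, 95.5 and 96.2 at pH 6 after 1 h, and 21.8, 25.6 and 37.6 at pH 4.5 and 39.7, 33.3 and 37.9 at pH 6 after 8 h. It fell by 1.41 ± 0.17 at pH 4.5 and by 1.32 ± 0.17 at pH 6. RCA (AT2G39730), rubisco activase, gave 61.5, 35.1 and 56.2 at pH 4.5 and 45.6, 46.8 and 67.3 at pH 6 after 1 h, and 18.9, 22.3 and 26.7 at pH 4.5 and 31.4, 27.4 and 31.9 at pH 6 after 8 h. The 1 h arrays of RCA, from 35.1, lay above the 8 h arrays, up to 31.9, by a small gap. LHCB4.1 (AT5G01530), a light-harvesting protein of photosystem II, gave 76.7, 46.5 and 59.8 at pH 4.5 and 76.4, 72.2 and 85.9 at pH 6 after 1 h, and 30, 27 and 33 at pH 4.5 and 51.2, 41.8 and 35.4 at pH 6 after 8 h. Its 8 h values at pH 6 reached 51.2 and so crossed the lowest 1 h value at pH 4.5, though within each pH the times did not overlap.

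Outside the list of photosynthesis genes, the falling members also held PSB27 (AT1G03600) and AT1G51400, both of photosystem II (1.86-fold and 1.79-fold at pH 4.5, 1.71-fold and 1.9-fold at pH 6), and AT1G74470, the geranylgeranyl reductase of chlorophyll and tocopherol synthesis (1.77-fold and 1.66-fold). AT5G24490, annotated as a plastid-type ribosomal protein, gave 211, 180 and 211 at pH 4.5 and 254, 241 and 234 at pH 6 after 1 h, and 60.3, 59.4 and 74.5 at pH 4.5 and 89.2, 81.9 and 61.2 at pH 6 after 8 h. The rhodanese-like plastid gene AT4G27700 fell 2.32-fold at pH 4.5 and 2.23-fold at pH 6, the thioredoxin family gene AT1G07700 1.91-fold at pH 4.5 and 1.96-fold at pH 6, and the plastoglobule-type fibrillin gene AT5G19940 1.84-fold at pH 4.5 and 1.69-fold at pH 6. AT1G73655, an FKBP-type prolyl isomerase, lay at the threshold with -0.70 ± 0.15 at each pH.

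Of 55 loci in the photosynthesis list, which serves as the marker list for shoot tissue, 10 had a named probe set and 8 were tested. Of the 8, 5 were called lower at 8 h at pH 4.5 and 4 at pH 6, 4 of them at both, with medians of -0.96 and -0.77. Over all probe sets tested, 11.1% were called lower at pH 4.5, 10.6% at pH 6 and 3.39% at both, and the medians were 0.02 and 0.01. The summed signal of the 10 probe sets was 282 to 402 at pH 4.5 and 351 to 402 at pH 6 after 1 h, and 132 to 147 and 160 to 204 after 8 h. Of the 10 means, 1 was under the filter level of 11.1 in each 1 h group, and 5 and 4 in the 8 h groups of pH 4.5 and pH 6. RCA, ATPC1 and LHCB4.1, members by the rule, supplied part of that sum and were 3 of the 4 called lower at both pH. They also entered the medians. As the rule chose them for falling, nothing is read from the calls or medians of the 8. Without them, the other 7 probe sets summed to 105 to 175 at pH 4.5 and 136 to 152 at pH 6 after 1 h, and to 49.4 to 61.8 and 57.9 to 81.8 after 8 h. Of the 5 of these that were tested, 2 were called lower at pH 4.5, 1 at pH 6 and 1 at both. This signal was lower at 8 h beside the photosynthesis members, and whether a varying share of shoot tissue had a part in their fall was not tested. The 3 root markers summed to 3020 to 3799 and 3029 to 3276 after 1 h, and to 3790 to 4425 and 3447 to 4941 after 8 h. EXPA7 fell by 0.54 ± 0.15 at pH 4.5 (limma adjusted p = 0.0145) and PYK10 rose by 0.45 ± 0.12 at pH 6 (adjusted p = 0.0162).

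Among photosynthesis genes that were not members, PSAN (AT5G64040), a photosystem I subunit, gave 43.3, 34.3 and 29.9 at pH 4.5 and 46.3, 37.5 and 31.8 at pH 6 after 1 h, and 10.8, 15.5 and 16 at pH 4.5 and 15, 2.73 and 0.626 at pH 6 after 8 h. It fell by 1.14 ± 0.35 at pH 4.5 (limma adjusted p = 0.0251) and by 2.33 ± 0.35 at pH 6 (adjusted p = 0.000132). The pH 4.5 call of PSAN ended without replicate 1 or 2 of either pH 4.5 group, where PSAN fell by 1.00 to 1.20, and also with a constant of 1 (-1.29) or no filter (-1.14). PSBW (AT2G30570), of photosystem II, fell by 0.98 ± 0.21 at pH 4.5 (adjusted p = 0.00215), and its difference at pH 6 was -0.47 ± 0.21 (adjusted p = 0.138). PSAE-1 (AT4G28750) had differences of -0.93 ± 0.43 and -0.95 ± 0.43 (adjusted p = 0.134 and 0.132). LHCB4.2 (AT3G08940) was under the filter, with 8.15 to 25.8 after 1 h and 0.639 to 4.13 after 8 h.

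**Figure D4:**
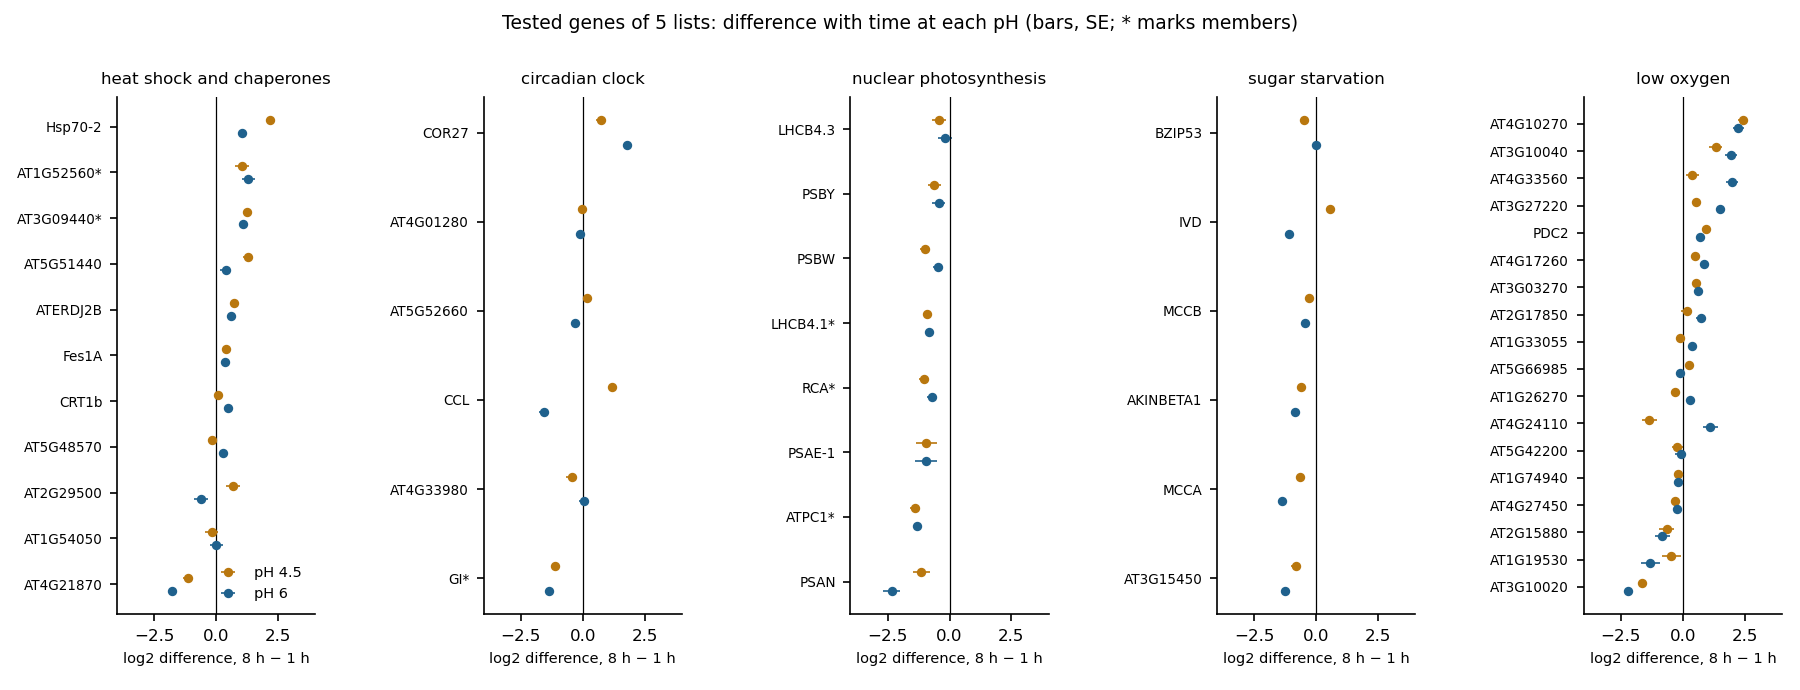
Log2 difference, 8 h minus 1 h, at pH 4.5 (brown) and pH 6 (blue) for the tested genes of 5 lists (points; bars, SE of the limma fit; asterisks, members). Chaperone points lie mostly to the right of 0 and photosynthesis and sugar starvation points mostly to the left, while the clock and low oxygen lists spread over both sides.

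Proteases and sugar metabolism supplied further falling genes. AT5G19120, an aspartyl protease family protein, gave 769, 794 and 706 at pH 4.5 and 625, 575 and 573 at pH 6 after 1 h, and 192, 199 and 309 at pH 4.5 and 218, 185 and 284 at pH 6 after 8 h. It fell by 1.71 ± 0.16 at pH 4.5 and 1.37 ± 0.16 at pH 6. AT5G19110, the next gene in the RefSeq table of assembly TAIR10.1 and of the same family, fell 2.27-fold at pH 4.5 and 2.42-fold at pH 6, with a wide spread at 1 h (92.9 to 295). AT1G03600 (PSB27) and AT1G03610 are also next to each other, and both fell. AT3G59480, a fructokinase-type sugar kinase, gave 46, 72.5 and 60.9 at pH 4.5 and 84.7, 65.2 and 82.9 at pH 6 after 1 h, and 13.5, 11.7 and 23.5 at pH 4.5 and 19.9, 20.2 and 21.8 at pH 6 after 8 h. Its differences were -1.68 ± 0.20 at pH 4.5 and -1.72 ± 0.20 at pH 6. The serine carboxypeptidase-like gene scpl33 (AT3G17180) fell 2.99-fold at pH 4.5 and 2.62-fold at pH 6, and AT5G62360, of the inhibitor family of invertases and pectin methylesterases, fell 1.8-fold at pH 4.5 and 2.62-fold at pH 6.

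Transport, lipid and signalling genes were also in the falling group. AT5G46040 and AT5G14940, of the nitrate and peptide transporter family, fell by 1.28 and 0.88 at pH 4.5 and by 1.06 and 0.71 at pH 6 on the log2 scale. AT2G01900, an inositol polyphosphate 5-phosphatase, gave 48.7 to 68 over the 6 arrays of 1 h and 20.8 to 27.9 over those of 8 h. CP5 (AT1G64720), with a START lipid-binding domain, and CYP71B26 (AT3G26290), a cytochrome P450, fell 2.04-fold and 1.87-fold at pH 4.5 and 1.87-fold and 2.08-fold at pH 6. The protein kinase-type gene AT5G16810 fell 2.26-fold at pH 4.5 and 2.1-fold at pH 6, and AT1G21050, with a domain of the MIZU-KUSSEI1 type, 2.21-fold at pH 4.5 and 1.91-fold at pH 6. The RING protein gene AT1G49200 had differences of -1.03 ± 0.28 at pH 4.5 and -0.78 ± 0.28 at pH 6. The acyltransferase AT5G07080, the EF-hand protein AT4G38810, the wound-responsive family gene AT5G66050, the tetratricopeptide repeat gene AT2G29670 and the VQ-motif gene AT2G42140 fell by 0.78 to 0.90 at pH 4.5 and by 0.76 to 0.98 at pH 6. The probe set shared by AT1G30730 and AT1G30720, berberine-bridge-type oxidoreductases, fell by 0.93 and 0.99 by the rule, and that of the glutamate receptor genes GLR2.2 and GLR2.3 by 0.74 and 0.79.

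Falling genes given here by locus code only were led by AT5G59080, with 40.6, 41.5 and 60.6 at pH 4.5 and 64.3, 29.1 and 35.6 at pH 6 after 1 h, and 9.1, 6.36 and 20.1 at pH 4.5 and 8.01, 4.5 and 17.9 at pH 6 after 8 h. The change was 3.42-fold at each pH, from signals of 29.1 to 64.3 to signals of 4.5 to 20.1, and with a constant of 16 in place of 4 the mean log2 difference went from -1.78 to -1.18. AT5G51390, AT2G25735, AT2G46220 and AT2G28780 fell by 0.94 to 1.24 at pH 4.5 and by 1.30 to 1.71 at pH 6. AT1G35612 and AT4G16000 fell 2.06-fold and 2.13-fold at pH 4.5 and 2.24-fold and 2.26-fold at pH 6. AT1G21680, AT4G31875, AT3G15630, AT2G37750, AT1G80180, AT5G28610 and AT1G03610 fell by 0.72 to 0.99 at pH 4.5 and by 0.73 to 1.02 at pH 6. AT3G15630, which fell, and AT3G15650, which rose, lie with 2 genes between them in the RefSeq table.

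The sizes of change at the pH values were alike by construction but not identical. Among rising members, 29 changed more at pH 4.5 and 29 more at pH 6. Among falling members, 56 changed more at pH 4.5 and 44 more at pH 6. The changes lay within 0.25 of each other in 39 rising and 71 falling members. In the limma fit 2 rising and 4 falling members were called for a difference between their time effects, where 15.6% of all tested probe sets were, and nothing is read from this count because the rule limited that difference. The named ones were AT4G17670, at -0.82 ± 0.18 for pH 6 minus pH 4.5, AT5G62360, at -0.54 ± 0.17, and AT2G36320, at 0.47 ± 0.14.

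The threshold divided genes of nearly equal change. Just inside it on the rising side were AT2G31790 (0.94 and 0.70 at pH 4.5 and pH 6), UGT72E2 (0.81 and 0.71) and HYH (0.72 and 0.91). Just outside were PDC2 (0.92 and 0.68), a pyruvate decarboxylase of fermentation, AT5G25820 (0.71 and 0.67) and AT2G25530 (0.68 and 0.67). On the falling side AT1G73655 (-0.71 and -0.70), AT1G80180 (-0.72 and -0.92) and AT1G03610 (-0.80 and -0.72) were just inside, and AT1G78460 (-0.76 and -0.70 after rounding), AT2G38640 (-0.99 and -0.69) and AT4G01330 (-0.69 and -0.95) just outside. Within 0.1 of the threshold, 21 rising and 30 falling probe sets lay inside and 27 and 46 outside.

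In the 18 lists of loci used here, 100 of 490 loci had a named probe set, and 3 rising and 4 falling members were among them. Some lists held no member. Their counts below stand beside 2.9% of all tested probe sets called higher at both pH and 3.39% called lower. Of 20 low oxygen genes with a named probe set, 18 were tested, and 6 were called higher and 1 lower at both pH. AT4G10270 and AT3G10040, both responsive to low oxygen, rose by 2.43 ± 0.21 and 1.32 ± 0.25 at pH 4.5 (limma adjusted p = 7.49e-08 and 0.00061) and by 2.24 ± 0.21 and 1.94 ± 0.25 at pH 6 (adjusted p = 6.37e-07 and 2.2e-05), but their levels differed between the pH values too much for the rule. AT3G10020 fell by 1.66 ± 0.15 and 2.22 ± 0.15 (adjusted p = 1.93e-07 and 1.75e-08). Of 6 sugar starvation genes tested, 3 were called lower at both pH. They were MCCA (AT1G03090), a subunit of methylcrotonyl-CoA carboxylase (-0.66 ± 0.17 and -1.37 ± 0.17, adjusted p = 0.00823 and 1.53e-05), AT3G15450 (-0.83 ± 0.19 and -1.25 ± 0.19, adjusted p = 0.00275 and 9.9e-05) and AKINBETA1 (-0.62 ± 0.12 and -0.86 ± 0.12, adjusted p = 0.000971 and 5.94e-05). The pH 4.5 call of MCCA ended without replicate 1 (-0.53) or replicate 2 (-0.49) of the 8 h group. MCCB (AT4G34030), the partner subunit, had -0.29 ± 0.13 and -0.44 ± 0.13 (adjusted p = 0.141 and 0.0262), and its pH 6 call ended without replicate 1 or 3 of either pH 6 group (-0.29 to -0.46). The remaining tested genes of that list, IVD (AT3G45300) and BZIP53 (AT3G62420), did not fall at both pH. IVD had 0.54 ± 0.12 at pH 4.5 (limma adjusted p = 0.00341) and -1.10 ± 0.12 at pH 6 (adjusted p = 5.27e-06). BZIP53 had -0.48 ± 0.10 at pH 4.5 (adjusted p = 0.000983) and 0.00 ± 0.10 at pH 6 (adjusted p = 0.986). Of 13 early touch and wound genes tested, 0 were higher and 4 lower at both pH.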

How the data were processed

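The values are microarray signal intensities on a linear scale that the authors computed; the submitters' processing notes name MAS5 and GCOS, with versions not given in the sources used here. From the values, each array was scaled to one mean after leaving out the highest and lowest 2%. The 12 arrays were grouped by the treatment in their labels, 3 per group, and no values were equal between arrays. Gene names came from the probe table of the series, updated through the RefSeq table of assembly TAIR10.1, with 13513 probe sets naming 1 gene, 503 several and 8730 none.

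Members were found by the rule given at the opening of the report, and the members and the gene lists were chosen with earlier results of these data known. The 4 group means were fitted to log2(signal + 4) of all 12 arrays with limma 3.58.1 (R 4.3.3; eBayes with trend, 8 residual degrees of freedom), over the 15922 probe sets at or above the 30th percentile of mean signal, a level of 11.1. Two-sided p-values were adjusted by Benjamini-Hochberg across these probe sets and called at 0.05. Differences and folds of members are from this fit, with standard errors and no p. The scale understates changes of low signals, and 4 rising and 11 falling members had a group mean under 11.1. The number of arrays limits the precision, with a median standard error of a time difference of 0.14. A list gene with several probe sets was read on its brightest.

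Named genes were the 20 rising and 20 falling members with the largest mean change, members in a list, the 3 genes on each side of the threshold, and up to 4 other genes of a list with the largest time differences. The other named members were added to account for every named gene, and IVD and BZIP53 to complete the sugar starvation list. Alternatives were other constants, scalings, filters and thresholds, a block by replicate number, and leaving out each array. Only the limma fit was tried on simulated data, with independent noise between arrays. The rule that chose the members was not tested in this way, so the trial says nothing about how well it finds members. Tables were handled in Python 3.11.15 (pandas 2.3.3, numpy 2.4.6) and plotted with matplotlib 3.10.9. Probe positions and sequences were not used here.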

Additional observations from a re-analysis of the deposited data

Results flagged for a closer look

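Some list genes that were not members had time effects that differed between the pH values by the interaction term of the limma fit, given here as the effect at pH 6 minus that at pH 4.5 on the log2 scale. For CCL it was -2.77 ± 0.27 (SE, adjusted p = 7.49e-07), with a rise at pH 4.5 and a fall at pH 6. Its signals went from 13.3, 13.4 and 14 to 32.6, 29.9 and 47.4 at pH 4.5, and from 70.3, 50.3 and 45.9 to 14.3, 17.5 and 15.1 at pH 6. COR27 rose more at pH 6, by 1.07 ± 0.26 (limma adjusted p = 0.00821), and Hsp70-2 less at pH 6, by -1.17 ± 0.16 (adjusted p = 5.28e-05). The calmodulin-like gene AT1G76640 fell at both pH but less at pH 6, with 2.61 ± 0.44 (limma adjusted p = 0.000335). Its fall at pH 6 (-1.15) was no longer called without replicate 1 (-0.93) or 3 (-1.06) of pH 6 at 1 h or replicate 2 of pH 6 at 8 h (-0.92). For EXO, the EXORDIUM gene of brassinosteroid response, the value was 2.27 ± 0.17 (limma adjusted p = 2.65e-08), for CML41, a calmodulin-like gene, -2.19 ± 0.28 (adjusted p = 1.84e-05), and for AT4G33560 of the low oxygen list 1.58 ± 0.35 (adjusted p = 0.00374).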

How the results depend on the processing

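At a threshold of 1 in place of 0.7, 19 rising and 45 falling members remained. With a constant of 16 the rule found 44 rising members, 38 of them shared, and 94 falling, 70 shared. With a constant of 1 it found 61 (55 shared) and 108 (94 shared), with arrays scaled to one median 60 (54) and 105 (91), and after quantile normalization 53 (49) and 103 (95). Leaving out 1 array at a time gave 53 to 65 rising and 94 to 108 falling members, with at least 49 and 78 shared. Over these 16 settings without the change of threshold, 23 rising and 39 falling members were kept in every one. Of the 20 largest named, 13 rising and 10 falling were. RCA was lost with a constant of 16, without replicate 3 of pH 6 at 1 h and without replicate 2 of pH 6 at 8 h. LHCB4.1 was lost in 4 settings and UGT72E2 in 4, and ATPC1 and AT5G61590 only without replicate 3 of pH 4.5 at 8 h. GI, UGT78D2, UGT84A1 and AT3G09440 were kept in all 16.

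The probe sets called by limma numbered 3790 at pH 4.5 and 3107 at pH 6 for time, 1720 and 4445 for pH at 1 h and 8 h, and 2477 for the difference between time effects. Leaving out 1 array gave 2873 to 4010, 2258 to 3173, 1232 to 1898, 3571 to 4513 and 2031 to 2451. With arrays centred on their median, the share of higher calls went from 53.2% to 47.6% for time at pH 4.5, from 45.7% to 53.8% for time at pH 6, from 48.7% to 33.4% for pH at 1 h and from 46.3% to 57% for the difference between time effects, so that the majority direction turned in both time comparisons and in that difference. With quantile normalization these shares were 50.6%, 47.4%, 44.3% and 48.9%. Signs were compared between settings for part of the genes only, 48 named members and 26 named list genes that were not members, where tested. No mean time difference of those members and no called time difference of those list genes changed sign. Of the members' mean time differences, 15 moved by more than the spread between arrays, all with a constant of 16, among them AT5G59080 (-1.78 to -1.18), AT5G16810 (-1.13 to -0.73) and AT5G51390 (-1.41 to -0.90), and the other 868 comparisons with an alternative did not. The clock median at pH 4.5 turned from 0.07 to -0.24 with the higher filter and to -0.08 without replicate 3 of pH 4.5 at 1 h, the low oxygen median at pH 4.5 from 0.03 to -0.10 with the higher filter, and the flavonoid value at pH 6, which rested on 1 tested gene, from 1.05 to -0.04 with no filter. With replicate number as a block the counts were 3907, 3255, 1857, 4613 and 2630. The numbers were not taken to pair samples: same-numbered arrays of different groups correlated at -0.09 to 0.17 in their deviations, 5 of 18 over 0.1. Unnamed probe sets limit what the members can show, since 20 rising and 47 falling members had no gene named, and detection calls were not used here.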
